A study of Glycine max with 10 samples.

Results

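In pods sampled 18 days after flowering, 49 of the 56044 genes counted reached 20 CPM (counts of the gene per 1e6 counts of the library) or more in the library of soybean 109 and 10 or more times their highest CPM in the other 9 libraries. These 49 genes, called the 109-high genes here, were chosen by their CPM in these same 10 libraries, so their high level in soybean 109 is a description and not a finding. The rule left out 16 listed seed genes (glycinin, conglycinin, lipoxygenase, lectin, trypsin inhibitor, oil desaturase and SWEET10 sugar transporter genes, as the rule names them). Before that step 62 genes met both thresholds, and 13 of the 16 listed genes were among them. The counts used for CPM leave out a block of 129 chromosome 13 IDs, which took between 1.33% and 78.2% of a library's counts.

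The study compared RNA from whole pods of field-grown soybean (Glycine max) whose pods shattered at high or at low force. High_force holds soybeans 015, 018, 044, 060 and 071, and low_force holds 038, 055, 072, 092 and 109, each with 1 paired-end library of total RNA. The labels give no genotype, treatment or plant age beyond the 18 days, and do not say whether a soybean number is a plant, a line or a pool. P-values therefore measure only the spread between these samples.

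During seed filling, a legume embryo takes up sugar and amino acids from the mother plant and lays them down in its cotyledons as storage globulins and oil. Transcripts of storage proteins then rank among the most abundant of the seed. A whole pod holds pod wall, seed coats and embryos, so a bulk pod library mixes their RNA, and fewer cells of a type cannot be told apart from less RNA per cell.

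The deposited table names genes by Wm82.a2.v1 IDs only. None of these IDs matched the 59048 genes of the RefSeq table of assembly Glycine_max_v4.0 (0 matches), so the 109-high genes carry no name or role here. Whether they belong to seed filling could not be checked against annotated markers, nor could the labelled tissue. That 13 of the 16 listed seed genes met the thresholds too, against 0.111% of the 55915 genes outside the block, rests on the same values as the rule and is no check of the label.

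Depth outside the block ran from 1421180 counts in low_force 055 to 13120885 in high_force 044, with 7430895 in low_force 109. Where no read was counted, up to 3 counts remain possible, equal to 2.11 CPM in low_force 055 and to 0.229 to 0.821 CPM elsewhere. These limits and all intervals below cover counting error only. Low_force 055 stands apart because the block took 78.2% of its counts, so its values for the 109-high genes rest on the fewest reads. Another 4 genes outside the block, at 20 CPM or more and 10 or more times the rest, took 39.6% of its remaining counts. Scaling by the trimmed mean of M-values gave it an effective size of 976440, below its 1421180 counts. Each other library had an effective size above its counts outside the block. By that scaling CPM values and the 2.11 CPM limit of low_force 055 are too low beside the others, and folds over it too high. The sources used here do not give how strand and multiply matching reads were handled, so the levels of closely similar gene copies are uncertain.

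In low_force 109 the 49 genes lay between 20.2 and 1247 CPM, with a median of 60.2 CPM, on 150 to 9263 counts each. There were 15 genes at 100 CPM or more, 12 between 50 and 100 CPM and 22 below 50 CPM. Together they took 0.671% of the counts in low_force 109, against 0.00432% in the other 9 libraries pooled. The 4 genes with most reads held 46.8% of their summed CPM in low_force 109, and the 10 with most reads held 66.9%. Gene length was not available, so these shares count reads and do not rank transcript levels between genes.

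**Figure D1:**
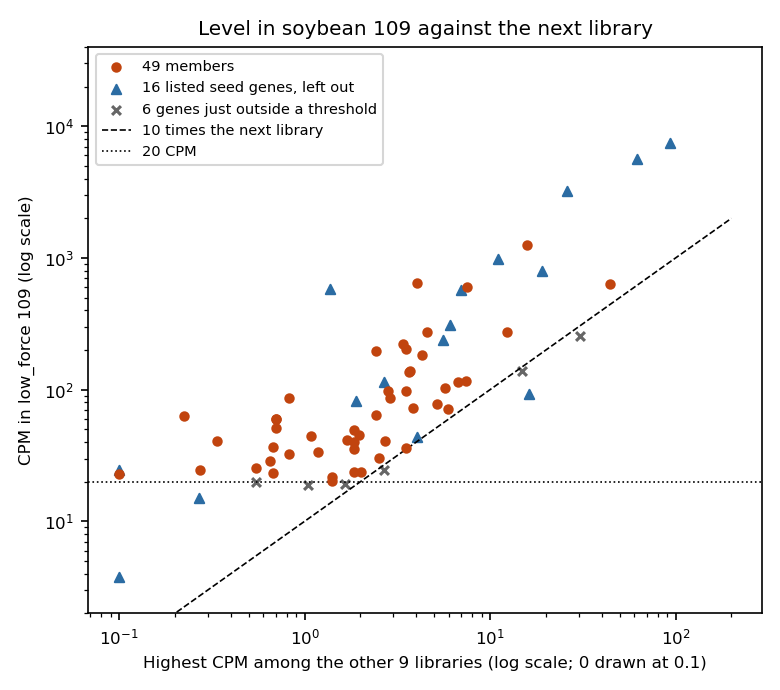
CPM in low_force 109 against the highest CPM among the other 9 libraries, both on log scales, for the 49 members, the 16 listed seed genes that were left out and 6 genes just outside a threshold. Members lie above the lines of 20 CPM and of 10 times the next library because the rule set those lines, and they reach 1247 CPM.

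Glyma.08G116300 had more reads in low_force 109 than any other of the 49 genes. It stood at 3.15, 4.93, 0, 15.9 and 0.987 CPM in high_force 015, 018, 044, 060 and 071, at 1.69, 0, 1.62 and 7.31 CPM in low_force 038, 055, 072 and 092, and at 1247 CPM in low_force 109. That is 78.4 times high_force 060, the next library (95% counting interval 60.7 to 103.1). High_force 060 and low_force 092 were the next highest, 1 from each group, and the groups overlapped outside soybean 109.

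Glyma.06G022600 reached 647.7 CPM in low_force 109. Elsewhere it lay at 4.05, 2.74, 0.381, 0 and 0.987 CPM in the 5 high_force libraries, in the order above, and at 0.507, 0, 3.51 and 0.522 CPM in low_force 038, 055, 072 and 092. This was the widest gap among the 39 genes with at least 3 counts in the next library, 160.1-fold over high_force 015 (interval 101.2 to 270.4).

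Glyma.10G028300 was the least sharply separated of the 10 genes with most reads. It stood at 636.0 CPM in low_force 109 and at 8.54, 44.1, 5.18, 43.4 and 4.20 CPM in high_force 015, 018, 044, 060 and 071. In low_force 038, 055, 072 and 092 it lay at 8.95, 2.11, 5.93 and 4.57 CPM. High_force 018 and 060 thus stood above the other 7 libraries, with 161 counts each, and low_force 109 lay 14.4-fold above high_force 018 (interval 12.3 to 17.0).

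Glyma.19G063400 reached 606.5 CPM in low_force 109. The other libraries held 1.80, 1.09, 1.30, 7.54 and 1.85 CPM in high_force and 7.09, 2.81, 0.270 and 3.39 CPM in low_force, in the same order. High_force 060 and low_force 038 were close to each other at the top, and the fold over high_force 060 was 80.4 (interval 55.5 to 121.1).

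Glyma.16G071800 and Glyma.06G078700 had nearly equal CPM in low_force 109, 274.5 and 273.7, but different patterns elsewhere. The first lay at 12.4, 0.274, 0, 2.69 and 0.247 CPM in high_force and at 2.87, 0, 0 and 1.04 CPM in low_force without 109, so high_force 015 was above all the rest. The second was seen in all 9 libraries, at 1.57, 2.46, 1.45, 3.77 and 1.11 CPM in high_force and 4.56, 1.41, 1.08 and 0.913 CPM in low_force without 109. Its spread over the 9 libraries was the smaller, and the folds over the next library were 22.2 (interval 17.0 to 29.6) and 60.02 (interval 41.1 to 91.3).

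The remaining 4 of the 10 genes with most reads were rare outside soybean 109. Glyma.04G077600 stood at 222.0 CPM in low_force 109, at 0, 0, 0.0762, 1.35 and 0 CPM in high_force, and at 3.38, 0.704, 0.270 and 0.522 CPM in low_force without 109. Glyma.01G095000 stood at 202.3 CPM in low_force 109, at 0, 0.274, 0, 1.08 and 0.247 CPM in high_force, and at 0, 0, 0.270 and 3.52 CPM in low_force without 109. Their next libraries differed, low_force 038 with 20 counts for the first and low_force 092 with 27 counts for the second. Glyma.08G341000 stood at 196.9 CPM in low_force 109, at 0, 0.274, 0, 2.43 and 0.123 CPM in high_force, and at 0, 0, 0 and 0.261 CPM in low_force without 109. Glyma.13G288100 stood at 183.8 CPM in low_force 109, at 0.899, 2.19, 0, 4.31 and 0.247 CPM in high_force, and at 0.338, 0, 0.270 and 4.04 CPM in low_force without 109. High_force 060 was the next library for both, with 9 and 16 counts, and low_force 109 exceeded it by 81.2-fold (interval 42.6 to 177.9) and 42.6-fold (interval 26.2 to 74.8).

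The other 39 genes lay between 20.2 and 137.4 CPM in low_force 109. Over all 49, the median fold over the next library was 28.5 with next libraries under 3 counts set to 3 counts, and the range was 9.56 to 160.1. With all 9 libraries held at no less than 3 counts, a bound chosen after seeing the data, the median was 19.4, and it was 28.5 when low_force 055 was also left out. The choice of members fixed the direction and the lower end, so these folds describe the selection. For 39 genes the next library held at least 3 counts, and for the other 10 it held 2 counts or fewer. Of all 49, 15 genes had at most 5 counts in any other library.

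At the far end, Glyma.17G083600 had 170 counts (22.9 CPM) in low_force 109 and 0 counts in each of the other 9 libraries, which is at least 10.8-fold above the limit of 3 counts in low_force 055, the shallowest library, and at least 27.9-fold above that limit in the other 8. Glyma.20G148300 had 469 counts (63.1 CPM) in low_force 109 and 1 count elsewhere, in high_force 015, a ratio of 280.8 with an interval of 50.2 to 11114, and with the limit of 3 counts in low_force 055 it was at least 29.9-fold above all 9. Both were singled out after their values were seen.

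Genes just inside the fold threshold were Glyma.06G322100 at 10.2 times the next library, Glyma.14G072700 at 11.8 times and Glyma.17G086400 also at 11.8 times. Just outside lay Glyma.10G246500 at 9.29 times, Glyma.16G018900 at 9.14 times and Glyma.11G176200 at 8.39 times. Glyma.10G246500 and Glyma.11G176200 stood at 138.1 and 255.2 CPM in low_force 109, well inside the CPM threshold, with low_force 038 next at 14.9 and 30.4 CPM. Near the CPM threshold, Glyma.17G256000, Glyma.14G052700 and Glyma.17G083600 lay inside at 20.2, 21.7 and 22.9 CPM, and Glyma.09G233900, Glyma.15G002200 and Glyma.01G172800 outside at 19.8, 19.4 and 18.8 CPM.

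**Figure D2:**
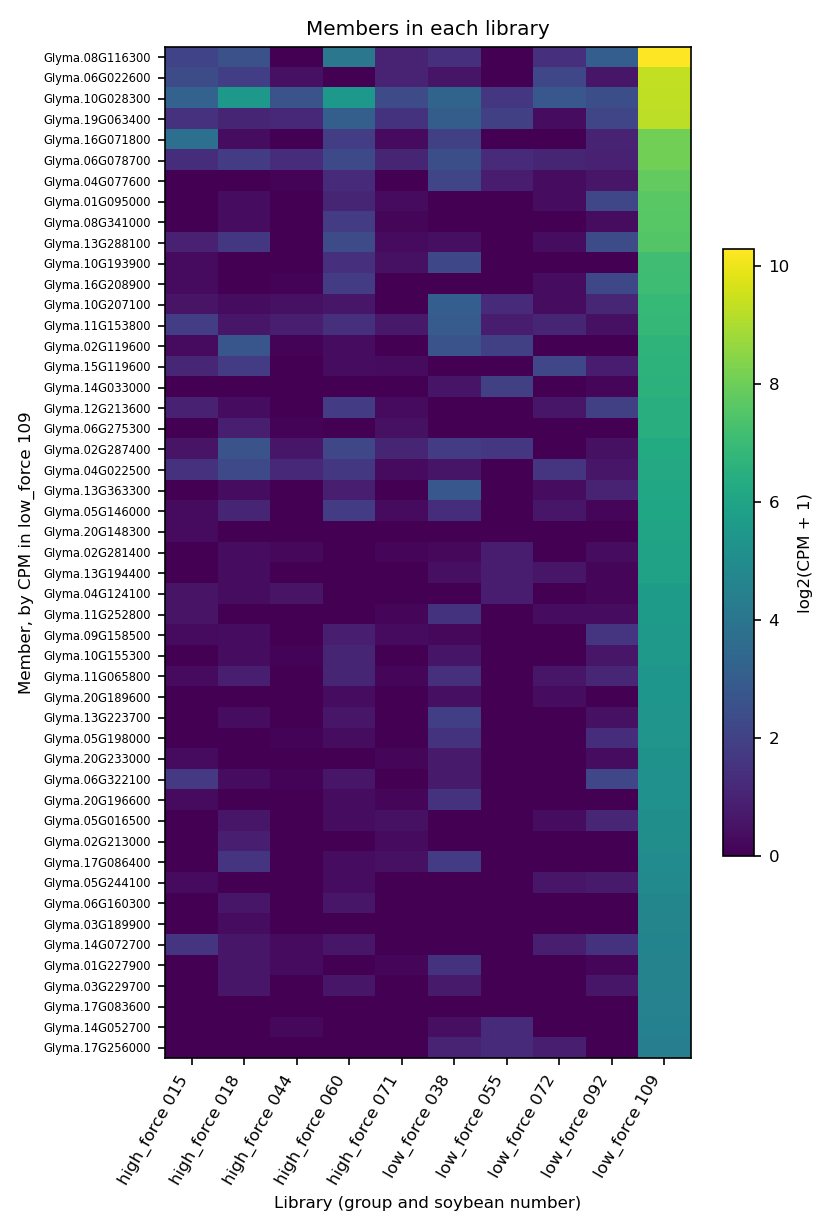
Each row is 1 of the 49 members, ordered by CPM in low_force 109, and each column a library; colour gives log2(CPM + 1). The low_force 109 column is bright throughout by the choice of members, and faint signal is scattered over the other 9 columns, strongest for Glyma.10G028300 in high_force 018 and 060 (44.1 and 43.4 CPM).

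Of the 49 genes, 48 had a count somewhere in the other 9 libraries, and Glyma.17G083600 had none. Whether these reads reflect expression in those 9 libraries was not tested. Of the 441 values there, 43.1% were 0 counts, and a gene had a count in a median of 5 of the 9 libraries. Counts in all 9 libraries were seen for 4 genes, and counts in 3 or fewer for 10. Pooled over the 9 libraries, with 51752997 counts outside the block, a gene had between 0 and 575 counts with a median of 25. In 10 genes no other library held more than 3 counts.

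The summed CPM of the 49 genes was 47.2, 87.3, 13.1, 107.8 and 15.4 CPM in high_force 015, 018, 044, 060 and 071. In low_force 038, 055, 072 and 092 it was 82.8, 21.8, 25.6 and 51.7 CPM, against 6708 CPM in low_force 109. High_force 060 was highest of the 9 (95% counting interval 97.5 to 118.9) and high_force 044 lowest (11.2 to 15.2), both in the same group. With 1 library for each soybean, these intervals cover counting error only and not the spread between pods of 1 soybean. The high_force mean was 54.2 ± 42.4 CPM (SD, n = 5) and that of low_force without 109 was 45.5 ± 28.2 CPM (SD, n = 4), a difference smaller than either SD. Low_force 109 lay 62.2-fold above high_force 060.

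These sums lean on a few genes. Glyma.10G028300 supplied 50.5% of the member counts in high_force 018, 40.2% in high_force 060 and 39.5% in high_force 044, but 9.48% in low_force 109. In 6 of the other 9 libraries it was the member with most counts. Glyma.08G116300 led in low_force 109 with 18.6% and in low_force 092 with 14.1%, Glyma.16G071800 led in high_force 015 with 26.2%, and low_force 055 had no member above 4 counts. Without the 4 genes with most reads, low_force 038 was highest of the 9 at 64.5 CPM (interval 58.2 to 71.3) and high_force 060 second at 41.0 CPM (interval 34.7 to 48.01), with high_force 044 still lowest at 6.25 CPM. Which of the 9 libraries had the highest sum thus depended on 4 of the 49 genes.

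**Figure D3:**
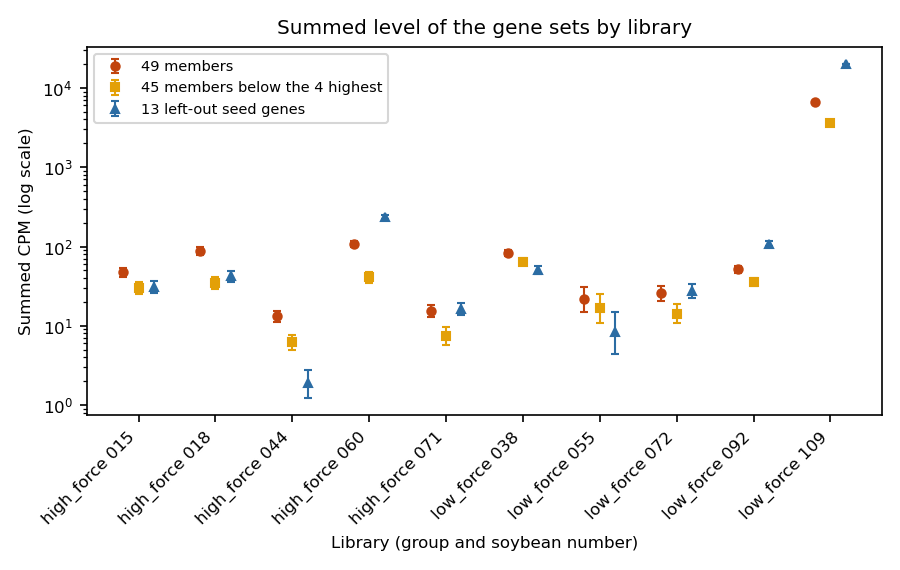
Summed CPM per library on a log scale for the 49 members, for the 45 members below the 4 highest, and for the 13 left-out seed genes that met the thresholds; bars are 95% Poisson intervals. All 3 sets are highest in low_force 109, at 6708, 3571 and 20078 CPM, and lowest in high_force 044, at 13.1, 6.25 and 1.91 CPM.

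For 48 of the 49 genes a next library could be named. It was low_force 038 in 16 genes, high_force 018 in 8, low_force 092 in 7, high_force 060 and low_force 055 in 6 each, high_force 015 in 4 and low_force 072 in 1, and high_force 044 and 071 in 0. The 6 genes led by low_force 055 rest on 1 to 4 counts there, where 1 count is 0.704 CPM. Among all 45925 genes with a count outside the block, low_force 038 was highest of the 9 in 9.28%, against 33.3% of the 48 genes, and low_force 092 in 20.3%, against 14.6%. Of the genes led by low_force 038, Glyma.10G207100 (7.43 CPM, 44 counts), Glyma.11G153800 (6.76 CPM, 40 counts) and Glyma.13G363300 (5.91 CPM, 35 counts) had the most counts in it, a choice made after their values were seen. No count of genes is tested here, since the rule capped every one of these values.

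The 13 left-out seed genes that met the thresholds lay between 24.4 and 7441 CPM in low_force 109 and took 2.01% of its counts. High_force 060 was the next library for 8 of the 12 that had a count elsewhere (66.7%), against 6 of the 48 genes described here (12.5%). Among all 45925 genes with a count outside the block it was highest of the 9 in 9.13%, near the share of the 48. These differences were not tested.

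Applied to each library in turn, the same thresholds picked 62 genes in low_force 109, listed seed genes included, which is 0.111% of the 55915 genes outside the block. They picked 31 in low_force 092 and between 0 and 4 in each of the other 8 libraries. Of the 11279 genes at 20 CPM or more in it, 1100 (9.75%) were highest there. The same share, taken over each library's own genes at 20 CPM or more, was 10.5% to 38.7% in 6 libraries (low_force 038 and 092 and high_force 015, 018, 044 and 071) and 2.85% to 8.88% in the other 3 (low_force 055 and 072 and high_force 060). Folds over the next library of at least 2 were seen for 123 genes, at least 5 for 81, at least 10 for 62 and at least 20 for 46, so 62 of the 123 genes past 2-fold were also past 10-fold.

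**Figure D4:**
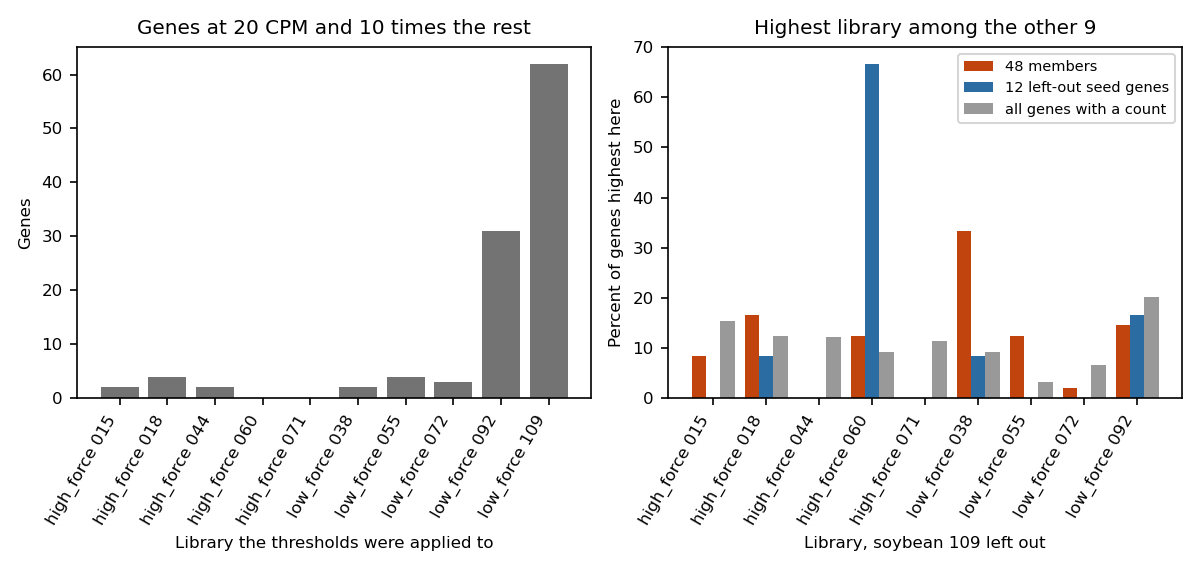
Left, the number of genes at 20 CPM or more and at 10 or more times the rest, for each library taken in turn (62 in low_force 109, 31 in low_force 092, 0 to 4 elsewhere). Right, the percent of genes whose highest library among the 9 without soybean 109 is the one named, for 48 members, 12 left-out seed genes and all genes with a count; low_force 038 holds 33.3% of the members and high_force 060 66.7% of the left-out seed genes.

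By their IDs, which number genes along each chromosome, the 49 genes were spread over 18 of the 20 chromosomes. Chromosome 6 held 5 of them, chromosomes 2, 5, 10, 13 and 20 held 4 each, and chromosomes 7 and 18 held 0. Chromosome 6 has 5.86% of all IDs placed on chromosomes and held 10.2% of the 109-high genes. It was singled out because it held the most, and the difference was not tested. Chromosomes 7 and 18 have 4.93% and 5.44% of these IDs. There were 3 pairs within 50 IDs of each other in which a 109-high gene lay near another one or near a left-out seed gene. Glyma.20G148300 (63.1 CPM in low_force 109) is next to the left-out Glyma.20G148400 (14.9 CPM), Glyma.08G341000 (196.9 CPM) has 4 IDs between it and the left-out Glyma.08G341500 (793.6 CPM), and Glyma.17G083600 and Glyma.17G086400 have 27 IDs between them. Neighbouring copies could share reads, which was not tested.

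The comparison of the study, high against low shattering force, was made for these genes in the 9 libraries without soybean 109, where the rule set only an upper limit. Counts scaled by TMM (trimmed mean of M-values) were tested with edgeR's quasi-likelihood test, with Benjamini-Hochberg adjustment over all 30484 genes that passed the filter on low counts. Only 3 of the 49 genes passed that filter, and 0 of the 3 were called at an adjusted p under 0.05, where 0% of all genes were called. Glyma.10G028300 had a log2 fold change (high_force minus low_force) of 1.63 (SE 0.75, edgeR adjusted p = 0.677), Glyma.08G116300 one of 0.50 (SE 1.17, adjusted p = 0.944) and Glyma.19G063400 one of -0.67 (SE 0.79, adjusted p = 0.875). An unadjusted p under 0.05 was seen for 0 of the 3, against 7.37% of all genes, and DESeq2 called 0 of the 14 members to which it gave an adjusted p, against 0.206% of all genes.

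Among the 10 genes with most reads, the only ones tested one by one on CPM, no gene separated the groups either. Glyma.10G028300 had a high_force mean of 21.1 ± 20.7 CPM (SD, n = 5) and a mean of 5.39 ± 2.85 CPM in low_force without 109 (SD, n = 4; two-sided exact permutation p = 0.286). Exact permutation tests of the 10 genes with most reads gave unadjusted p between 0.206 (Glyma.04G077600) and 0.905 (Glyma.06G078700), where the design allows 0.00794 at best. In none of these 10 did the 2 groups stand apart.

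With no filter, the fit covered 48 of the 49 genes, and again 0 were called by edgeR among 46049 genes, with 0% of all genes called. The log2 fold change was below 0, that is lower in high_force, in 34 of the 48 (70.8%), with a median of -1.11, against 47.4% and a median of 0.04 over all genes. An unadjusted p under 0.05 was seen for 7 (14.6%, against 7.87% of all genes), 6 of them lower in high_force (against 4.46% of all genes). One of those 6, Glyma.10G207100, had a log2 fold change of -3.20 (SE 0.98, edgeR adjusted p = 0.545) on 9 counts or fewer in all but low_force 038. Leaving out low_force 092 gave 28 of 48 below 0 (58.3%, against 44.1% of all genes). Leaving out low_force 038 gave 29 of 48 (60.4%, against 45.1% of all genes). The lean to low_force is thus smaller without either library, and the share over all genes is lower too. Most of these genes have a handful of counts, and a fitted fold change at such depth is uncertain.

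With all 10 libraries, which include the one the rule used, 3 of the 49 genes passed the filter and 0 were called by edgeR's quasi-likelihood test over 30226 genes, where 0% of all genes were called. All 3 had values lower in high_force, with log2 fold changes of -5.84 (SE 2.09) for Glyma.08G116300, -5.71 (SE 1.71) for Glyma.19G063400 and -2.80 (SE 1.42) for Glyma.10G028300 (edgeR adjusted p = 0.796, 0.796 and 0.805). An unadjusted p under 0.05 was seen for 2 of the 3, against 6.26% of all genes. DESeq2 gave no p-value to any of these 3 genes. Only 3 of the 49 genes received an adjusted p from it, namely Glyma.06G322100, Glyma.14G052700 and Glyma.17G256000. It called 0 of them, against 0.0745% of all genes. With library size scaling in place of TMM in edgeR, all 3 genes that passed the filter were called lower in high_force, where 0.205% of all genes were called. The direction follows from soybean 109 being a low_force sample, so nothing is read from it about shattering force.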

How the data were processed

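The table the authors deposited holds whole-number read counts for 56044 genes in 10 libraries, without normalization. The submitters' processing notes name edgeR, featureCounts, Subread 1.6.2, Trim Galore 0.4.4 and TopHat2, with no role or setting. Per the labels' protocols, Trizol-extracted, DNase-treated total RNA went into TruSeq RNA libraries. IDs end in Wm82.a2.v1, and no other statement of the build was found in the sources used here.

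Columns were matched to samples by sample ID. CPM divides a count by the library's counts outside the chromosome 13 block (Glyma.13G011400 to Glyma.13G024200). Ratio intervals are exact 95% intervals for a pair of counts, and summed CPM has exact Poisson intervals. Group tests used edgeR 4.0.16 in R 4.3.3 (TMM, filterByExpr, quasi-likelihood, SE as the log2 fold change over the square root of F), two-sided, with a threshold of 0.05. DESeq2 1.42.0 was an alternative. The fit was also run on simulated counts of genes that passed the filter, and its outcome is not used here. Only 3 members passed that filter, so the run says nothing about the other members. The members, the rule and the tests were chosen with earlier results of these data known. Named are the 10 members of highest CPM in low_force 109 and the 3 genes on each side of each threshold, as no ID matched the reference. Gene lists, markers and promoter motifs planned from gene descriptions could not be run for that reason, and no sequence is shown.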

Additional observations from a re-analysis of the deposited data

Results flagged for a closer look

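For the 10 members with most reads and the summed levels of the 49 and 45 members, 24 sets of values were searched for a library far from the others of its group, within high_force and within low_force without soybean 109, which the rule itself sets apart. The search found 11 values. Its chance rate of about 1 in 20 sets cannot be relied on here, because several of these sets hold few or no counts. No excess over chance is therefore read from the 11.

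High_force 060 was far above its group for Glyma.19G063400 (7.54 CPM), Glyma.04G077600 (1.35 CPM), Glyma.01G095000 (1.08 CPM) and Glyma.08G341000 (2.43 CPM). High_force 015 was far above its group for Glyma.16G071800 (12.4 CPM). In low_force without soybean 109, library 038 was far above the others for Glyma.06G078700 (4.56 CPM) and Glyma.04G077600 (3.38 CPM). Library 092 was far above them for Glyma.01G095000 (3.52 CPM) and Glyma.13G288100 (4.04 CPM), and library 072 for Glyma.06G022600 (3.51 CPM). The search also returned library 092 for Glyma.08G341000 (0.261 CPM, on 2 counts). That value is below the 3-count limit of 0.391 CPM in library 092, so it cannot be called above the others. The values for Glyma.04G077600 and Glyma.01G095000 in high_force 060 rest on 5 and 4 counts.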

How the results depend on the processing

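The number of 109-high genes was 49. It was 27 with a threshold of 50 CPM, and between 34 and 70 under the other scalings and thresholds tried and without low_force 055. The median fold over the next library lay between 26.96 and 35.6 under those scalings, a floor of 1 count and without low_force 055, against 28.5. It was 19.4 with all 9 libraries held at no less than 3 counts, because of the limit in low_force 055. Over all genes, library size scaling without TMM called 81 genes in the 9 libraries and 62 in the 10, and DESeq2 called 70 and 25, against 0 for both in edgeR with TMM. Library size scaling shifted the median log2 fold change of all genes to 0.70 in the 9 libraries and 0.54 in the 10. With it the only 3 members fitted in the 10 libraries were called, all lower in high_force. That direction follows from the choice of members by soybean 109, a low_force sample. Under the same scaling Glyma.19G063400 turned from -0.67 to 0.030 without soybean 109. With the filter on low counts, leaving out each soybean in turn gave 0 to 1 calls over all genes in either comparison and 0 among the members. With no filter, leaving out each soybean of the 9 libraries gave 0 to 2 calls over all genes and 0 among the members. These fits, chosen after seeing the data, gave 28 to 37 members below 0. These were 58.3% to 78.7% of the members fitted, against 44.1% to 48.9% of all genes. No paired analysis was possible because the groups share no soybean number. Depth limits the members outside soybean 109, where 43.1% of values are 0 counts.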
